A study of Homo sapiens with 13 samples.

Results

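The 42 genes described here encode proteins of mitosis and chromosome segregation. They were chosen by symbol from a fixed list, with no measured value in the rule, and 42 of 42 were found among the 24875 symbols of the Silvestrol table and among the 13121 symbols of the INK128 table. CDK1 is listed under its older symbol CDC2 in the Silvestrol table and was matched by its transcript. By role they comprise 5 cyclin-CDK genes, 4 genes of the anaphase-promoting complex (APC/C) activators and sister separation, 3 genes of spindle kinases (PLK1 and AURKA) and the AURKA activator TPX2, 4 of the chromosomal passenger complex, 5 of the spindle checkpoint, 7 of the centromere and kinetochore, 4 kinesin motors, 6 of condensin and topoisomerase, and 4 of the central spindle and cytokinesis.

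All libraries came from MDA-MB-231, a triple-negative breast cancer cell line, grown in RPMI medium with serum. Treated cultures were given fresh medium containing either vehicle (DMSO) or drug. In the Silvestrol experiment, cells received DMSO or 25 nM Silvestrol, an inhibitor of the eIF4A helicase, for 1 or 2 h. Ribosome footprints (RFs) were sequenced from 1 library for each treatment at 1 h, from 2 libraries for each treatment at 2 h (cell passages 3 and 4), and from 1 library of untreated cells, and mRNA was sequenced from 1 DMSO and 1 Silvestrol library at 2 h. In the INK128 experiment, RFs and total RNA were each sequenced from 1 library of cells given DMSO and 1 of cells given 200 nM INK128, an mTOR kinase inhibitor, for 2 h. The labels conflict at 2 points: 1 field of the DMSO mRNA library calls those cells untreated, and 1 field of the passage 3 Silvestrol RF library at 2 h gives 1 h. The titles were followed in both cases. The replicates are passages of 1 cell line, so p-values of the main fit measure the spread between passages. Where the passage is in the model (the passage block), that spread is removed. The p-values then measure how far the drug effect differed between passages.

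Counted reads ranged from 2652423 to 31188148 in the 7 RF libraries and from 24792922 to 50315607 in the mRNA libraries, whereas the depth of the INK128 libraries is unknown because only FPKM values are given. The passage 4 libraries were the shallowest. Of the cell line's markers, VIM ranged from 4789 to 7031 RPKM over the RF libraries and CD44 from 138 to 344 RPKM, ESR1 was listed at 0 throughout, PGR and CDH1 lay at or near 0, and of the luminal keratins KRT8 was listed at 0 in 5 of 7 RF libraries, whereas KRT18 was present at 47.4 to 95.4 RPKM in all 7.

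Mitosis is driven by cyclin-bound CDK1 and is ended by the APC/C, a ubiquitin ligase that marks cyclins and securin for destruction. Spindle microtubules attach to kinetochores, the protein assemblies built on centromeres, and the spindle checkpoint holds the APC/C inactive until attachment is complete. Transcripts of many of these genes accumulate together in G2 and M phase under promoters that carry CHR and CCAAT elements. eIF4A unwinds structure in the 5′ leader of mRNAs during initiation. The RFs and the translation efficiency (TE, RF density over mRNA density) of each gene read how much of it was being translated, relative to other genes, in these asynchronous cells. Each library was scaled to its own genes, so a change in total translation is not seen. Higher and lower therefore mean relative to other genes. In bulk libraries, fewer cells in mitosis and less RNA per cell cannot be told apart.

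Promoters of the members shared sequence elements that the choice of genes did not use. RefSeq promoter windows (GRCh38.p14) matched 36 of 42 members, and the 250 bases upstream of each start were searched on both strands for TTTGAA, the core of the CHR element, and for CCAAT, each counted by itself where they overlapped. TTTGAA was present in 21 of 36 member promoters (58.3%) against 13.3% of 35116 promoters and 8.02% of the 7517 promoters of genes used for TE. CCAAT was present in 27 of 36 (75%) against 32.0% and 35.9%, and both were present in 17 of 36 (47.2%) against 4.69% and 3.38%. These are matches of letters and not measured binding sites. The 100 bases upstream of the start follow for CCNB2 (chr15:59105046-59105145, plus strand), CDC20 (chr1:43358881-43358980, plus strand), KIF4A (chrX:70290004-70290103, plus strand) and ECT2 (chr3:172750626-172750725, plus strand), with both motifs in capitals. CCNB2 held both motifs, whereas the other mitotic cyclin genes CCNA2 and CCNB1 held CCAAT without TTTGAA, CDC20 had the largest mRNA decrease of the members, and KIF4A and ECT2 were called lower in RFs.
CCNB2: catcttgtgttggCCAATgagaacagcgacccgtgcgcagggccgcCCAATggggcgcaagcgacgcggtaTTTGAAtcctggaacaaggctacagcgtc
CDC20: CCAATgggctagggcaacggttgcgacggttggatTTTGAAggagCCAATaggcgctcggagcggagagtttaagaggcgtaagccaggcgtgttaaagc
KIF4A: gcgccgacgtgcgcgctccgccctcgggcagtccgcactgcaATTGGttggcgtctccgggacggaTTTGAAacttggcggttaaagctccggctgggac
ECT2: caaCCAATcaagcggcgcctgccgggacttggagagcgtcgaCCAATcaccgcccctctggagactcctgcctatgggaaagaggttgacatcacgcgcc
CCNB2, CDC20 and KIF4A each held 1 TTTGAA in the stretch shown, and in KIF4A the CCAAT motif lay on the reverse strand (ATTGG). ECT2 held 2 CCAAT motifs there and its TTTGAA match lay farther upstream. No TTTGAA or CCAAT was found in the windows of NUF2, NDC80, SMC2, KIF2C and CENPE, and no promoter entry was matched for TPX2, AURKA, BIRC5, BUB3, TTK and RACGAP1.

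Mitotic genes were among the well expressed and efficiently translated genes of these cells. In DMSO at 2 h (passage 3), their median RF density was 149 RPKM, against 20.8 RPKM over 10516 genes, and their median mRNA density was 44.8 RPKM against 12.1 RPKM. Median TE was 3.59 against 1.84, and 35 of 42 members lay above the median TE of all genes. The highest TE belonged to SPC25 (10.4), a subunit of the Ndc80 complex, followed by CDK1 (9.22), the mitotic kinase, and BUB3 (8.47), a checkpoint protein. MAD2L1, which encodes the checkpoint protein MAD2, had the lowest TE (0.324) on only 20 RF reads, against a member median of 7709.5 reads. ESPL1 (separase) had a TE of 1.09 and PTTG1 (securin, its inhibitor) of 1.28, both below the median gene. The order differed in the DMSO libraries of the INK128 experiment, where TE from FPKM had a median of 12.5 over 13121 genes. There PTTG1 was at 35.6 and MAD2L1 at 48.4, both above it, and ESPL1 was at 9.16, the lowest of the members.

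After 2 h of Silvestrol, RFs of 4 of 42 members (9.52%) fell past the threshold and none rose, in a test of 11196 genes of which 5.96% were called lower and 1.54% higher (edgeR quasi-likelihood, adjusted p under 0.05). The 4 were TPX2, FZR1, KIF4A and ECT2, each from a different role. DESeq2 called 5 members lower, the same 4 and CDK1, and 2 higher, NDC80 and CENPE, where it called 8.93% of genes lower and 5.35% higher. The median log2 change of the members was 0.12, against -0.02 for all genes, with 23 of 42 above that value, and single members ranged from -1.53 to 0.90. Samples of the same passage deviated together, and with the passage as a block 15 members (35.7%) were called lower and 16 (38.1%) higher, where 26.7% and 23.9% of all genes were. On simulated counts without a passage effect, this test made more false calls than its threshold allows, more with the block than without it. Those counts cannot show how the block performs where passages deviate together. The calls with the block are given as a description. They were split between both directions in 8 of 9 roles, and within single complexes.

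**Figure D1:**
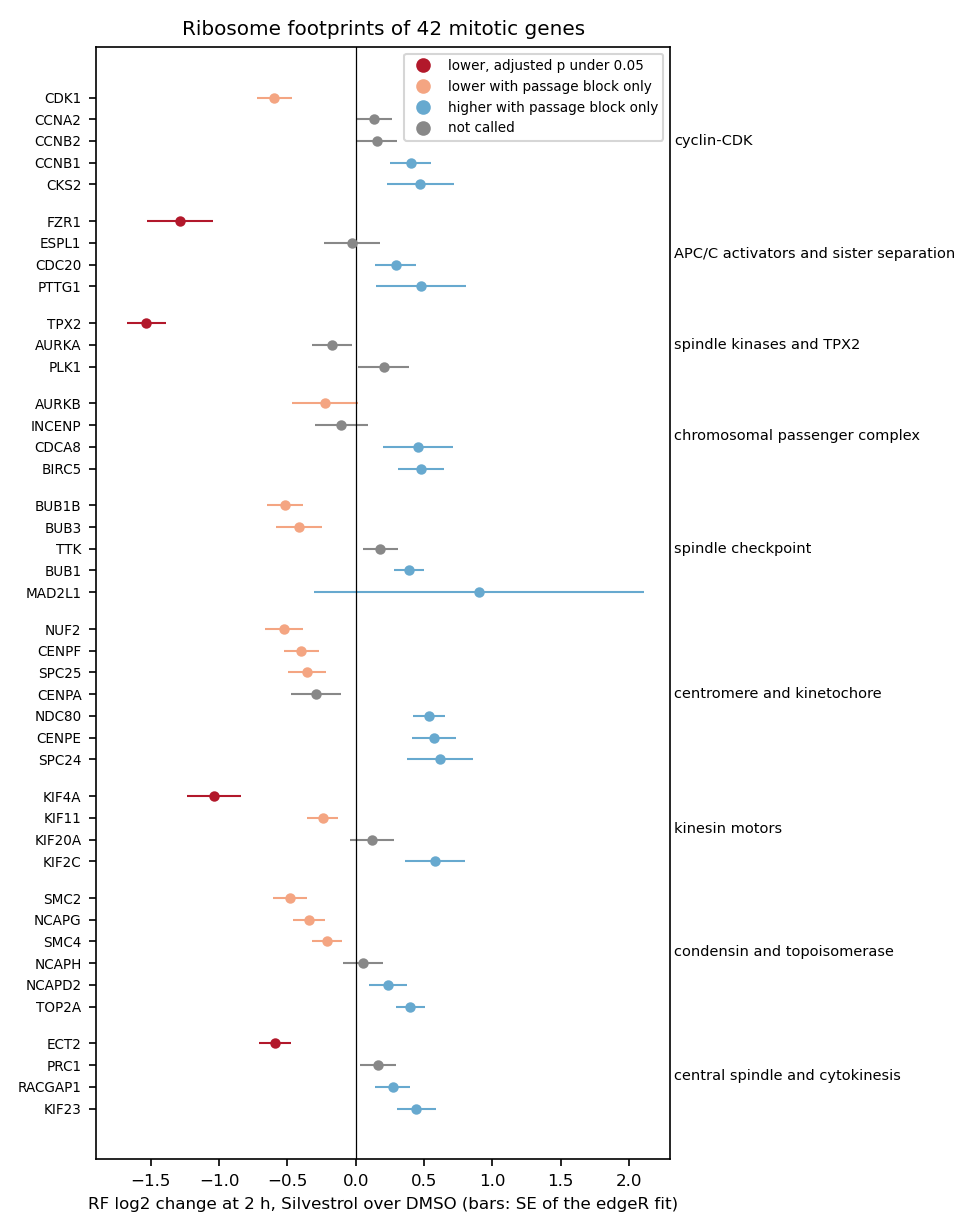
RF log2 change with Silvestrol at 2 h for the 42 mitotic genes, grouped by role; points are the edgeR estimates, bars 1 SE, and colours the outcome of the test without or with the passage block. TPX2 (-1.53), FZR1 (-1.28), KIF4A (-1.04) and ECT2 (-0.59) are the 4 members called without the block, and MAD2L1 has the widest bar (SE 1.21).

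RF densities below are given in a fixed order, first the controls (untreated, DMSO at 1 h, DMSO at 2 h in passages 3 and 4) and then Silvestrol (1 h, 2 h in passages 3 and 4). Log2 changes and adjusted p-values are from the edgeR test of RF reads at 2 h. A first p is without the block and a second, where given, with it.

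TPX2 had the largest decrease of the 42 members, and the kinases AURKA and PLK1 were not called. TPX2, a microtubule-nucleation factor that activates and localises Aurora A, had 451, 394, 383 and 333 RPKM in the controls and 161, 112 and 114 RPKM with Silvestrol. All 3 Silvestrol libraries lay far below the 4 controls, and the log2 change was -1.53 (SE 0.14, adjusted p = 0.0216). Its mRNA went from 93.4 to 119.8 RPKM, in the opposite direction. AURKA, the kinase that TPX2 activates, had 235, 203, 182 and 106 RPKM in the controls and 149, 114 and 60.3 RPKM with Silvestrol, with a log2 change in reads of -0.17 (SE 0.15, adjusted p = 0.48). AURKA differed more in RPKM than in reads, since the length over which AURKA reads were counted differed 2.81-fold between RF libraries, and the change was -0.62 once that length was taken into account, still short of the threshold. PLK1, a kinase of mitotic entry and spindle formation, had a log2 change of 0.20 (SE 0.19, adjusted p = 0.518), or 0.083 with the counted length taken into account.

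Among regulators of the APC/C, FZR1 was lower in RFs, whereas CDC20 was called only with the block, as higher. FZR1, also called CDH1, which activates the APC/C in late mitosis and G1, had 67.4, 73.6, 68.3 and 50.4 RPKM in the controls and 28.6, 24.0 and 20.3 RPKM with Silvestrol. The groups did not overlap, and the log2 change was -1.28 (SE 0.24, adjusted p = 0.0454). CDC20, the activator used at the metaphase to anaphase transition, had 254, 255, 200.3 and 96.7 RPKM in the controls and 197, 212 and 78.1 RPKM with Silvestrol. Its control libraries spread widely and overlapped the Silvestrol libraries. The log2 change in reads was 0.29 (SE 0.15, adjusted p = 0.273, with the passage as a block 0.034), and only 0.07 with the counted length taken into account. PTTG1 had 256, 294, 229 and 213 RPKM in the controls and 243, 295 and 266 RPKM with Silvestrol, with a log2 change of 0.48 (SE 0.33, adjusted p = 0.391, with the passage as a block 0.00296). ESPL1 had 19.6, 18.4, 16.9 and 13.1 RPKM in the controls and 15.2, 14.3 and 12.7 RPKM with Silvestrol, and its change of -0.03 (SE 0.20, adjusted p = 0.954) was well inside the spread.

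**Figure D2:**
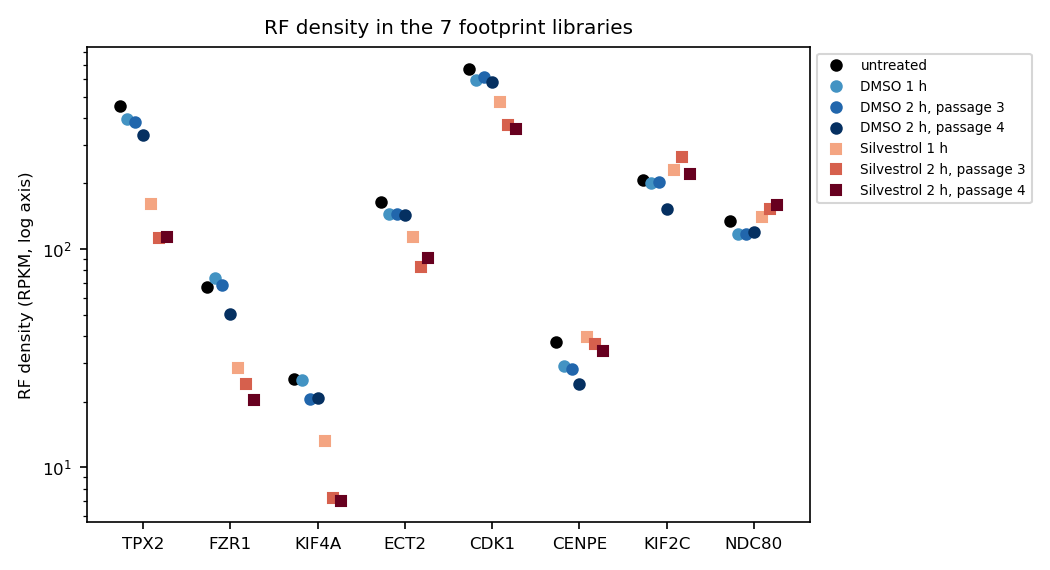
RF density (RPKM, log axis) of 8 members in each of the 7 RF libraries, controls as circles and Silvestrol as squares. TPX2, FZR1, KIF4A, ECT2 and CDK1 lie lower in all 3 Silvestrol libraries than in any control, NDC80 and KIF2C lie higher in all 3, and CENPE overlaps the untreated library.

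Among cyclin-CDK genes, the kinase was lower with the block, and CCNB1 and CKS2 were higher with it. CDK1 had 672, 598, 617 and 583 RPKM in the controls and 470.0, 369.6 and 355 RPKM with Silvestrol. Every Silvestrol library was lower than every control, and the log2 change of -0.60 (SE 0.13, adjusted p = 0.0562, with the passage as a block 1.99e-10) missed the threshold without the block and passed it with DESeq2 (adjusted p = 0.0424). CCNB1, the main mitotic cyclin, had 929, 852, 867 and 758 RPKM in the controls and 954, 1034 and 921 RPKM with Silvestrol, and its change was 0.40 (SE 0.15, adjusted p = 0.153, with the passage as a block 2.57e-06). CKS2, a small CDK-binding subunit, had 199.8, 353, 387 and 419 RPKM in the controls and 429, 540.4 and 342 RPKM with Silvestrol, and its change was 0.47 (SE 0.25, adjusted p = 0.273, with the passage as a block 0.00965). For CKS2 the passage 4 RPKM went from 419 down to 342, the counted length differed 1.85-fold between RF libraries, and the change was 0.26 with that length taken into account (adjusted p = 0.586). The groups overlapped for CCNB1 through the untreated library and for CKS2 through the passage 4 libraries. CCNA2, cyclin A2, changed by 0.13 (SE 0.13, adjusted p = 0.56) and CCNB2, a second B-type cyclin, by 0.16 (SE 0.15, adjusted p = 0.531), neither past the threshold in either fit.

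The chromosomal passenger complex, which corrects attachments and later acts at the midzone, held no member called without the block. BIRC5 (survivin) had 331, 324, 343 and 269.7 RPKM in the controls and 355, 374 and 393 RPKM with Silvestrol. All 3 Silvestrol libraries lay above the controls, with a log2 change of 0.48 (SE 0.17, adjusted p = 0.138, with the passage as a block 1.60e-05). CDCA8 (borealin) had 235, 228, 228 and 134 RPKM in the controls and 237, 275 and 180.4 RPKM with Silvestrol, and its change was 0.46 (SE 0.26, adjusted p = 0.305, with the passage as a block 4.20e-05). AURKB, the kinase of the complex, had 272, 264, 291 and 189 RPKM in the controls and 228, 202 and 157 RPKM with Silvestrol. In AURKB the passage 4 control lay among the Silvestrol libraries, and the change was -0.23 (SE 0.24, adjusted p = 0.587, with the passage as a block 0.0488). The scaffold INCENP changed by -0.11 (SE 0.19, adjusted p = 0.761).

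With the block, spindle checkpoint genes were called in both directions. BUB1B (BUBR1), part of the inhibitor that binds CDC20, had 53.5, 48.1, 49.5 and 48.6 RPKM in the controls and 34.2, 30.8 and 31.6 RPKM with Silvestrol. The groups did not overlap, and the change was -0.52 (SE 0.13, adjusted p = 0.0742, with the passage as a block 4.94e-06). BUB3, its partner, had 664, 680.2, 699.5 and 474 RPKM in the controls and 485, 408 and 313 RPKM with Silvestrol, and its change was -0.42 (SE 0.17, adjusted p = 0.178, with the passage as a block 3.90e-05). BUB1, a kinetochore kinase, had 171, 158, 163 and 159 RPKM in the controls and 177, 183 and 203 RPKM with Silvestrol. BUB1 was higher in all 3 Silvestrol libraries than in any control, by 0.39 (SE 0.11, adjusted p = 0.0946, with the passage as a block 2.26e-05). TTK (MPS1), the kinase that starts checkpoint signalling, changed by 0.18 (SE 0.13, adjusted p = 0.416). MAD2L1 had 3.05, 4.42, 7.18 and 30.4 RPKM in the controls and 4.88, 16.9 and 30.7 RPKM with Silvestrol. Those densities rest on 8 to 39 reads a library and on a counted length that differed 3.13-fold, and the controls alone spanned 9.96-fold, so its log2 change of 0.90 (SE 1.21, adjusted p = 0.669, with the passage as a block 0.0109) cannot be read as a difference.

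At the kinetochore, the 4 subunits of the Ndc80 complex, which binds microtubules, were called with the block, as lower for NUF2 and SPC25 and as higher for NDC80 and SPC24. NUF2 had 169, 137, 135 and 143 RPKM in the controls and 114, 90.8 and 84.2 RPKM with Silvestrol, with a change of -0.52 (SE 0.14, adjusted p = 0.0837, with the passage as a block 2.12e-06). SPC25 had 157, 139, 149 and 156 RPKM in the controls and 121, 97.2 and 121 RPKM with Silvestrol, with a change of -0.36 (SE 0.14, adjusted p = 0.171, with the passage as a block 0.00346). These were the subunits with lower RFs, and in both the groups did not overlap. NDC80 had 135, 118, 117 and 119 RPKM in the controls and 141, 153 and 159.7 RPKM with Silvestrol, with a change of 0.54 (SE 0.12, adjusted p = 0.0582, with the passage as a block 6.16e-08). SPC24 had 191, 178, 187 and 139 RPKM in the controls and 198, 252 and 202 RPKM with Silvestrol, with a change of 0.61 (SE 0.24, adjusted p = 0.171, with the passage as a block 9.94e-08). In both of these every Silvestrol library was higher than every control. CENPE, a kinesin that carries chromosomes to the spindle equator, had 37.6, 29.1, 28.2 and 24.0 RPKM in the controls and 39.5, 36.7 and 34.2 RPKM with Silvestrol, with a change of 0.57 (SE 0.16, adjusted p = 0.0959, with the passage as a block 9.18e-09). CENPF, a large kinetochore protein, had 78.5, 64.1, 65.2 and 59.6 RPKM in the controls and 65.4, 43.1 and 43.4 RPKM with Silvestrol, with a change of -0.40 (SE 0.13, adjusted p = 0.119, with the passage as a block 2.27e-05). In CENPE and CENPF 1 library crossed between the groups. CENPA, the histone H3 variant of centromeres, changed by -0.29 (SE 0.18, adjusted p = 0.347), with non-overlapping groups but no call in either fit.

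Of the kinesins, KIF4A, a chromokinesin of chromosome arms and the midzone, had 25.4, 25.1, 20.5 and 20.8 RPKM in the controls and 13.2, 7.26 and 7.03 RPKM with Silvestrol. The groups did not overlap, the log2 change was -1.04 (SE 0.20, adjusted p = 0.0469), and it reached -1.44 with the counted length taken into account, since that length differed 1.88-fold between RF libraries. KIF11 (Eg5), which pushes spindle poles apart, had 166, 144, 143 and 150.4 RPKM in the controls and 127, 107 and 119 RPKM with Silvestrol, with a change of -0.24 (SE 0.11, adjusted p = 0.22, with the passage as a block 0.0138). KIF2C (MCAK), a microtubule depolymerase, had 207, 201, 204 and 152 RPKM in the controls and 231, 266 and 221 RPKM with Silvestrol, with a change of 0.58 (SE 0.22, adjusted p = 0.155, with the passage as a block 2.64e-10). KIF11 lay lower and KIF2C higher in every Silvestrol library. KIF20A, a kinesin of cytokinesis, had 210.0, 190.2, 179.9 and 154 RPKM in the controls and 184, 174 and 156 RPKM with Silvestrol, and its change of 0.12 (SE 0.16, adjusted p = 0.677) was not called.

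Condensin, the ring that compacts mitotic chromosomes, was likewise called in both directions with the block. Its ATPases SMC2 and SMC4 were lower. SMC2 had 91.0, 73.7, 72.8 and 83.9 RPKM in the controls and 60.9, 50.2 and 52.0 RPKM with Silvestrol, with a change of -0.48 (SE 0.13, adjusted p = 0.0809, with the passage as a block 3.71e-06). SMC4 had 142, 117, 113 and 122 RPKM in the controls and 112, 88.0 and 96.0 RPKM with Silvestrol, with a change of -0.21 (SE 0.11, adjusted p = 0.275, with the passage as a block 0.0354). For both, no Silvestrol library reached the lowest control. The condensin I subunit NCAPG had 156, 122, 121 and 113 RPKM in the controls and 114, 81.4 and 74.2 RPKM with Silvestrol, with a change of -0.34 (SE 0.12, adjusted p = 0.134, with the passage as a block 0.00106). NCAPD2 had 178, 161, 149 and 122 RPKM in the controls and 149.5, 153 and 133 RPKM with Silvestrol, with a change of 0.23 (SE 0.14, adjusted p = 0.33, with the passage as a block 0.0153). In NCAPG and NCAPD2 the groups overlapped, and the third condensin I subunit, NCAPH, changed by 0.05 (SE 0.14, adjusted p = 0.844). TOP2A, the topoisomerase that untangles sister DNA and the member with the most RF reads, had 418, 349, 329 and 329 RPKM in the controls and 432, 406 and 385 RPKM with Silvestrol, with a change of 0.40 (SE 0.11, adjusted p = 0.0853, with the passage as a block 1.17e-06).

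In cytokinesis, ECT2, the exchange factor that activates RhoA at the cleavage site, had 164, 145, 145 and 143 RPKM in the controls and 114, 83.1 and 90.7 RPKM with Silvestrol. All Silvestrol libraries lay below the controls, and the log2 change was -0.59 (SE 0.12, adjusted p = 0.0493). The centralspindlin subunits that recruit ECT2 were higher with the block. KIF23 had 109, 98.1, 105 and 95.9 RPKM in the controls and 114, 129 and 121 RPKM with Silvestrol, with a change of 0.44 (SE 0.14, adjusted p = 0.121, with the passage as a block 5.97e-06). RACGAP1 had 126, 113, 109.6 and 82.4 RPKM in the controls and 117, 112 and 74.1 RPKM with Silvestrol, with a change of 0.27 (SE 0.13, adjusted p = 0.24, with the passage as a block 0.0238), or 0.05 with the counted length taken into account. KIF23 did not overlap between groups, whereas RACGAP1 did. PRC1, the microtubule bundler of the midzone, had 283, 244, 240.1 and 225 RPKM in the controls and 266, 244 and 231 RPKM with Silvestrol, with a change of 0.16 (SE 0.13, adjusted p = 0.474).

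Counted over all 7 RF libraries, a description added after the data were seen, 12 members (28.6%) were lower in all 3 Silvestrol libraries than in all 4 controls, where 32.9% of 10516 genes were, and 6 members (14.3%) were higher, where 10.2% were. The lower count of the members was thus near the background. A fit that omits 1 DMSO library at 2 h holds a lone DMSO library. Its spread then comes from the Silvestrol libraries alone, so its calls are no check on the 4 called members. Leaving out either Silvestrol library at 2 h left none of 11152 or 11644 genes called over the whole table (1586 and 1922 at an unadjusted p under 0.05), so those fits are not informative on the members' calls. Over the 4 omissions the log2 change of TPX2 ran from -1.66 to -1.39, of FZR1 from -1.51 to -0.997, of KIF4A from -1.21 to -0.85 and of ECT2 from -0.63 to -0.55.

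The 3 largest RF decreases at 2 h were also present at 1 h. With 1 library per treatment there is no test at this time, and log2 ratios of RPKM were centred on the median of 10505 genes (-0.18). FZR1 (-1.18), TPX2 (-1.10) and KIF4A (-0.74) were lower by more than 1.5-fold, 3 members of 42 (7.14%) against 14.1% of all genes. CENPE (0.62) was the 1 member (2.38%) higher by more than 1.5-fold, against 5.01% of all genes, and it was not past 1.5-fold without the centring. ECT2 (-0.16), CDK1 (-0.16) and NUF2 (-0.08) were close to the median gene at 1 h, and their RPKM at 2 h lay further below the controls. A test of the difference between the times, added after the data were seen, called 0 of 12059 genes and 0 members (edgeR, 110 genes and 1 member, CENPF, at an unadjusted p under 0.05). A later change for ECT2, CDK1 or NUF2 was therefore not shown.

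A larger share of the members than of all genes had higher mRNA with Silvestrol. Between the 2 mRNA libraries, with values centred on the median of 10516 genes, 11 members (26.2%) were higher by more than 1.5-fold, against 16.3% of genes, and 3 (7.14%) were lower, against 13.8%. The largest increase was in NUF2 (22.8 to 51.0 RPKM, log2 1.12), followed by TTK (10.9 to 21.1 RPKM, 0.91) and NDC80 (23.8 to 45.4 RPKM, 0.89). CDC20 (133 to 60.3 RPKM, -1.19), RACGAP1 (41.4 to 26.7 RPKM, -0.68) and NCAPD2 (-0.64) were lower. There is no replicate of either mRNA library, so these differences have no replicate check.

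The mRNA change moved with the base composition of the genes. Members had a lower GC content of the coding sequence than most genes, with a median of 44.8% against 51.7% over 9081 genes. Of the 42 members, 10 lay above that value. In the 14 members with the lowest GC content of the coding sequence (35.3 to 42.6%), the median log2 mRNA change was 0.81 and 14 of 14 were above 0. In the 14 with the highest (48.8 to 62.8%), it was -0.28, with 3 above 0. Spearman's rho between GC content and mRNA change was -0.82 over the 42 members and -0.61 over 9081 genes, all from the same pair of libraries. Between GC content and the passage 3 TE change, which uses that pair too, rho was 0.48 over the members and 0.41 over the 9081 genes. The part of base composition in the mRNA and TE changes was not tested. RF changes did not move with it in the same way: rho was 0.14 over the members and 0.11 over 9016 genes.

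**Figure D3:**
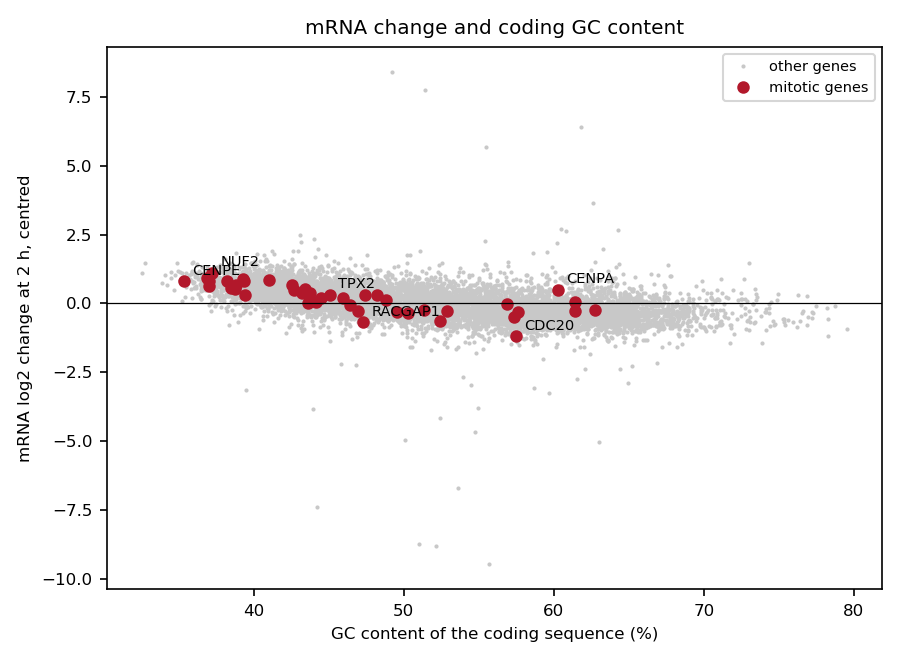
Centred log2 mRNA change at 2 h (y axis) against GC content of the coding sequence in percent (x axis), 42 mitotic genes in red over all other genes in grey, from 1 mRNA library per treatment. Members of low GC content lie above 0 and most of high GC content below it, with NUF2 at 1.12 and CDC20 at -1.19.

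TE combines both readouts, and its test called no member without the block. On simulated counts the test without the block recovered 19 of 200 genes given a log2 change of 2. The lack of calls is therefore not informative on the members. Of 14023 genes, 0.0214% were called lower and 0% higher (edgeR, interaction of assay and treatment), with 16 members (38.1%) at an unadjusted p under 0.05, where 2506 genes (17.9%) were. TPX2 came nearest, with a log2 TE change of -1.78 (SE 0.30, adjusted p = 0.0911), and over the alternatives its adjusted p ran from 8.94e-20 with the block to 0.430 without the passage 3 Silvestrol library, a fit in which 0 of 14345 genes were called (1431 at an unadjusted p under 0.05). Its TE change stayed between -1.94 and -1.65. DESeq2 called 7 members (16.7%) lower, where 3.91% of genes were, and 1 (2.38%) higher, CDC20, where 2.77% were. With the passage as a block, 16 members (38.1%) were called lower and 10 (23.8%) higher, where 17.8% and 17.2% of genes were. On simulated counts, again without a passage effect, the TE test exceeded its nominal rate of false calls by more than the RF test did. Its counts with the block are a description too. The spread in this test comes from the RF libraries alone, since mRNA was sequenced once per treatment.

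The TE z-score, the distance of the log2 TE ratio from its mean over 10516 genes in units of the SD, used passage 3 at 2 h and thresholds of -1.5 and 1.5. TPX2 (-1.84) was the 1 member below (2.38%), against 6.52% of genes, and CDC20 (1.55) the 1 member above (2.38%), against 4.62%. With RFs of passage 4 over the same mRNA libraries, TPX2 was at -1.69, NUF2 passed the threshold at -1.70, and CDC20 did not at 1.19. The z-scores rested on different readouts. In TPX2, RFs decreased while mRNA did not. In CDC20 the RPKM of RFs in passage 3 went from 200.3 to 212, and its mRNA decreased by 1.19 on the log2 scale. For NUF2 the z-score of -1.43 combined lower RFs with the largest mRNA increase of the members. TTK, with RFs near those of the controls, had a z-score of -0.66 alongside an mRNA change of 0.91.

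RF changes ordered with the length of the annotated 5′ UTR, the leader on which eIF4A acts. Members had shorter 5′ UTRs than most genes, with a median of 108.5 nt against 134 nt over 9081 genes (GENCODE v44 lifted to GRCh37, the authors' genome build), and of lower GC content, 62.0% against 67.7%. Spearman's rho between 5′ UTR length and RF change was -0.48 over the 42 members, -0.47 without TPX2, FZR1 and KIF4A, and -0.59 over 9016 genes. Of 31 members with a 5′ UTR under 150 nt, 8 of 11 under 75 nt and 13 of 20 from 75 to 149 nt had an RF change above 0. Under 75 nt the median log2 change of the members was 0.204, against 0.364 for 2477 genes of that length. From 75 to 149 nt it was 0.197, against 0.091 for 2418 genes. From 150 to 299 nt, 2 of 10 members had an RF change above 0. Their median log2 change was -0.44, against -0.26 for 2451 genes of that length.

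TPX2 (chr20:30327093-30389603, plus strand, GRCh37) had the longest 5′ UTR of the members at 509 nt, with the largest RF decrease, and it was the 1 member at 300 nt or more, where the median over 1670 genes was -0.67. SPC24 with 6 nt and CENPE with 24 nt had the shortest, and their RF changes were 0.61 and 0.57. KIF4A (chrX:69509954-69640736, plus strand, GRCh37) departed from this order, with a 5′ UTR of 68 nt and a log2 change of -1.04, where the median over 2477 genes under 75 nt was 0.36. FZR1 (chr19:3506309-3538332, plus strand, GRCh37) had 198 nt, of the highest GC content among the members (78.3%). Annotated leaders need not be those used in these cells, and whether leader length accounts for the changes was not tested.

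**Figure D4:**
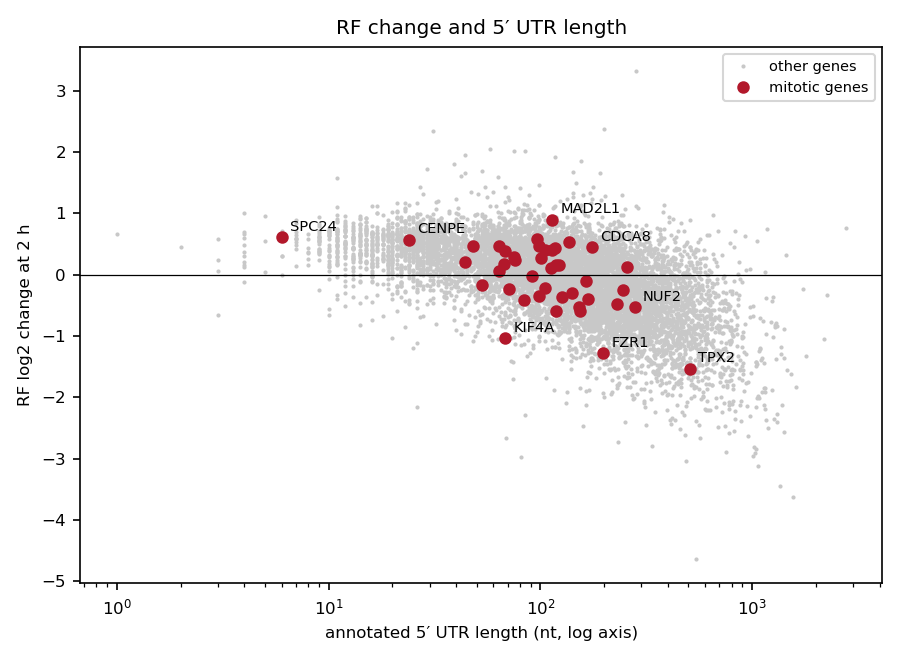
RF log2 change with Silvestrol at 2 h (y axis) against annotated 5′ UTR length in nt (x axis, log scale; genes without an annotated 5′ UTR not drawn), 42 mitotic genes in red over all other genes in grey. Points slope downward to the right in both, with TPX2 at the lower right (509 nt, -1.53) and KIF4A low among short leaders (68 nt, -1.04).

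No member lay past a threshold with INK128. At a mean of at least 1 FPKM in RFs and in total RNA, 23 of 42 members and 3145 genes were used, and 0 members were called. The background was 6.1% lower and 6.96% higher by more than 1.5-fold in RFs, 0.89% and 14.2% in total RNA, and 6.93% below and 1.08% above the z-score thresholds in TE. Without the minimum, 0 of 42 members were called, where 3.96% and 4.36% of 13121 genes were in RFs, 6.33% and 10.7% in total RNA, and 5.61% and 3.71% in TE. These are single libraries with no test. Total RNA values were lower in the INK128 library for the median gene by 1.15 on the log2 scale, and without centring 23 of 23 members were lower by more than 1.5-fold, as were 85.6% of the 3145 genes (0.572% were higher), which restates the shift of the whole library.

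The members with the largest RF decreases under Silvestrol are given here with their INK128 values. TPX2 had 83.7 FPKM of RFs in DMSO and 89.9 with INK128, FZR1 had 13.3 FPKM of RFs in DMSO and 11.5 with INK128, and KIF4A had 18.5 FPKM of RFs in DMSO and 18.7 with INK128. ECT2 had 38.2 FPKM of RFs in DMSO and 43.7 with INK128, and CDK1 had 101 FPKM of RFs in DMSO and 112 with INK128. FZR1, KIF4A and ECT2 were under the minimum and so not among the 23 members used with it. In the 23 members, centred log2 RF changes ran from -0.36 (CDCA8) to 0.27 (MAD2L1). The 2 drugs were compared in separate experiments with different RNA libraries and tables, and the difference between them was not tested. MAD2L1, listed with few RF reads in the Silvestrol experiment, had 79.9 FPKM of RFs in DMSO and 97.1 with INK128.

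**Figure D5:**
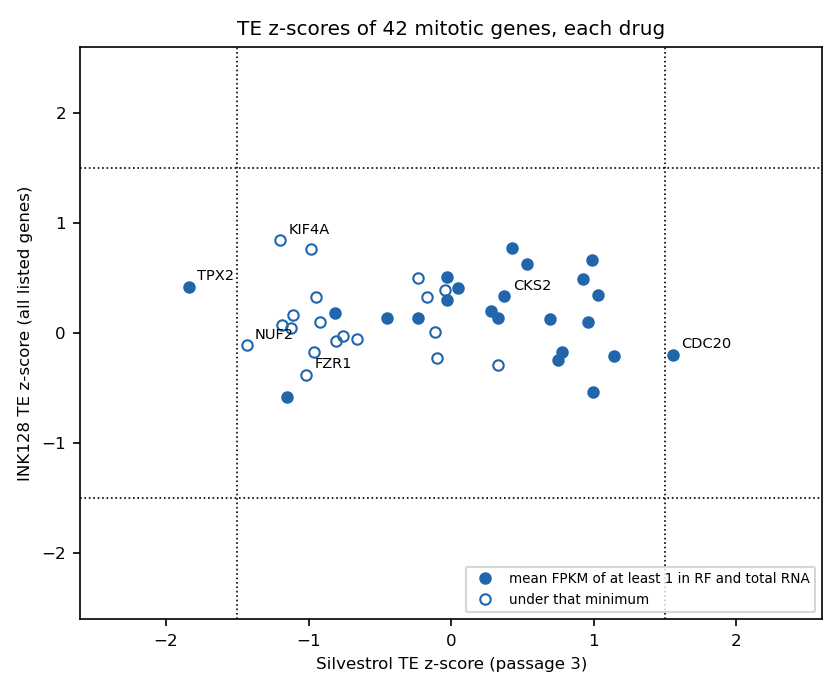
TE z-scores of the 42 mitotic genes with Silvestrol (x axis) and INK128 (y axis, from all genes listed); filled circles are the 23 members at 1 FPKM or more, dotted lines the thresholds of -1.5 and 1.5. TPX2 (-1.84) and CDC20 (1.55) lie past a Silvestrol threshold, and no member lies past an INK128 threshold.

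A wider list of 94 further mitotic genes was examined beside the members, of which 91 were found and 87 tested. RFs of 6 (6.9%) fell past the threshold at 2 h (edgeR, without the block), near the 5.96% of all genes, and none rose. With the block 27 (31%) were lower and 29 (33.3%) higher, where 26.7% and 23.9% of genes were, and the median log2 change was -0.01. The 6 were WAPL (-1.34), which releases cohesin from chromatin, STAG2 (-1.08), a cohesin subunit, NIPBL (-0.98), the cohesin loader, PDS5A (-0.72), a cohesin regulator, CENPN (-1.70), which binds CENPA nucleosomes, and ANLN (-1.16), the cytokinesis scaffold anillin. The core cohesin subunits SMC1A (0.54), SMC3 (0.03) and RAD21 (-0.52) and the subunit STAG1 (-0.68) were not called, and with the block SMC1A was called higher and RAD21 and STAG1 lower.

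In TE z-scores with Silvestrol, 7 of the 88 measured (7.95%) lay below -1.5 in passage 3, where 6.52% of genes did, and 5 of these also did in passage 4: WAPL, CENPN, CENPK, NIPBL and ESCO1. The other two, SGO1 and ENSA, were at -1.34 and 0.17 in passage 4. UBE2S, an E2 enzyme of the APC/C, was the 1 gene above 1.5 (2.79), on 5 RF reads in DMSO and 12 in Silvestrol, and it was at -0.16 in passage 4. With INK128, 2 of 26 (7.69%) lay above 1.5, PDS5A (1.80) and CENPM (1.51), where 1.08% of genes did, and 0 lay below, where 6.93% did. Without the minimum on FPKM it was 1 of 92 (1.09%) above, PDS5A (1.74), and 0 below, where 3.71% and 5.61% of genes were, and CENPM was at 1.43.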

How the data were processed

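RFs and mRNA of MDA-MB-231 cells were sequenced in the Silvestrol experiment, and RFs and total RNA in the INK128 experiment. Per the submitters' processing notes, CASAVA 1.8.1 and Bowtie2 were used, with hg19. The authors removed rRNA reads, counted uniquely mapped reads per canonical transcript (RFs at the P-site), and deposited these read counts beside RPKM values per library, from which the counted length follows. INK128 libraries are represented by deposited FPKM values alone, and the program that made them is not given in the sources used here. The authors also deposited TE ratios, log2 values and a standardised score of the TE change for each gene, which were not used. The DMSO mRNA column of the table names no treatment and was matched to the DMSO mRNA library by exclusion of the Silvestrol one.

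Identical lines were removed and 1 line was kept per symbol (24875 and 13121 symbols). RF counts at 2 h were tested with edgeR 4.0.16 (R 4.3.3; quasi-likelihood, TMM, Benjamini-Hochberg over all genes tested), TE by the interaction of assay and treatment. SEs are the log2 change over the square root of F. Other log2 ratios used genes with a mean of at least 1 RPKM in RFs and 0.3 RPKM in mRNA, or 1 FPKM, without pseudocount, and were centred on the median. Same-passage RF libraries deviated together (r = 0.78 over 11196 genes, the passage being given by the labels). The TE z-score has the form of the study's measure, but from RFs of passage 3 alone and over the genes used here, whereas the authors averaged the RF values of both passages. DESeq2 1.42.0, the block, filters, pseudocounts, a counted-length offset and omitted libraries were tried as alternatives. The offset for TE, the test between times and the counts of non-overlapping libraries were added after the data were seen. Scripts were tested on simulated counts without a passage effect. There the RF and TE tests both made more false calls than their threshold allows, more with the block and most of all in TE with it. The members, the wider mitotic list and the cell line markers were chosen with earlier results of these data known. All members were to be named, with per-library values for those called with or without the block, past a z-score threshold, or with the most RF reads in their role. Annotation was GENCODE v44 lifted to GRCh37, with MANE Select transcripts for 99.4% of genes and a transcript for 86.4% of genes used. Protein motifs named in the plan were not analysed here.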

Additional observations from a re-analysis of the deposited data

How the results depend on the processing

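With the passage as a replicate block, 15 members were lower and 16 higher in RFs, and 16 lower and 10 higher in TE; these counts exceed those without the block. DESeq2 gave 2 higher in RFs, and 7 lower and 1 higher in TE, and the TE test without a filter on low counts gave 1 lower. A fit that omits 1 RF library has a lone RF library in that treatment, so its RF spread comes from the other treatment. Leaving out 1 library at a time gave 0 to 2 members lower in RFs, and 0 to 9 lower and 0 to 2 higher in TE. Each RF fit with 2 members lower had 516 of 11112 or 625 of 11586 genes lower, and the TE fit with 9 and 2 had 1004 and 850 of 14343; with a lone Silvestrol library, whose spread was assumed to be that of the others, 0 genes of the whole table were called in RFs or TE, so those fits are not informative. For the TE z-score, RFs of passage 4, a pseudocount of 0.5 and a minimum of 5 each put 2 members below -1.5, with medians of -0.063, -0.15 and -0.17; none lay above 1.5 with passage 4 or with no minimum. Without centring, 0 members were past 1.5-fold higher at 1 h and 23 were lower in INK128 total RNA, as were 85.6% of genes. Changes near 0 turned sign: ESPL1 was 0.016 with DESeq2, and over the omission of 1 library ESPL1 ran from -0.22 to 0.21, AURKB from -0.48 to 0.088, INCENP from -0.30 to 0.12, KIF20A from -0.036 to 0.27, NCAPH from -0.065 to 0.18, and MAD2L1, on its few reads, from -0.56 to 2.87. Without the sign turning, changes not called without the block also moved by over 1.5 times with single libraries: PTTG1 (0.069 to 0.79), CDCA8 (0.19 to 0.79), SPC24 (0.36 to 0.89), KIF2C (0.36 to 0.84), CKS2 (0.25 to 0.71), BIRC5 (0.31 to 0.67), CCNB1 (0.25 to 0.53), CDC20 (0.15 to 0.39), NCAPD2 (0.12 to 0.35), PLK1 (0.025 to 0.39), CCNA2 (0.034 to 0.23), CCNB2 (0.0059 to 0.27), PRC1 (0.048 to 0.25), TTK (0.11 to 0.25), BUB3 (-0.59 to -0.22) and CENPA (-0.41 to -0.16). With the counted-length offset CCNA2 was 0.085, CCNB2 0.094, KIF20A 0.071, NCAPH 0.0055, ESPL1 -0.071 and MAD2L1 0.49. The causes were not tested. Depth limits the passage 4 libraries most, where the median member had 640.5 RF reads in Silvestrol; single mRNA and INK128 libraries allow no error estimate.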
